A study of Homo sapiens with 21 samples.

Results

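The SR splicing factor family was read out as 10 genes, SRSF1 to SRSF7 and SRSF9 to SRSF11, out of 37637 features in a table of read counts from HepG2 cells, a human liver tumour line. The members were chosen by family, as splicing factors whose own splicing caffeine is known to alter, and were found by matching symbols to the table's Ensembl identifiers. All 10 were present and all 10 passed the filter on low counts. The cells stood for 24 h in serum-free DMEM with no caffeine (control) or with 0.01, 0.1, 1, 10, 100 or 1000 µM caffeine. Each of the 7 groups had 3 libraries, 21 in all. The labels call them triplicates and do not say whether they came from separate cultures, so the spread between them may be technical. Removal of serum was common to all of them, control included. The model is 1 tumour line without the other cells of liver.

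SR proteins carry RNA recognition motifs at one end and a stretch rich in arginine and serine at the other. They bind exonic enhancers in pre-mRNA, recruit the spliceosome to nearby splice sites and, in several cases, escort the finished mRNA out of the nucleus. Kinases of the SRPK and CLK families phosphorylate the arginine-serine stretch, and the hnRNP proteins often oppose SR proteins on the same transcripts. SR genes also control their own output by splicing in poison exons, which send the transcript to nonsense-mediated decay. The genes lie apart in the genome (RefSeq, GRCh38.p14), with SRSF1 at chr17:57989038-58007246, SRSF2 at chr17:76734115-76737411, SRSF3 at chr6:36594362-36605600, SRSF5 at chr14:69767142-69772005 and SRSF6 at chr20:43457896-43464243. SRSF4 is at chr1:29147743-29181900, SRSF10 at chr1:23964347-23980327, SRSF11 at chr1:70205696-70253052, SRSF7 at chr2:38743599-38751494 and SRSF9 at chr12:120461672-120469748. Caffeine blocks adenosine receptors and phosphodiesterases and is known as an agent that changes the splicing of several SR transcripts.

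Counts were taken per gene, so coding and decay-prone transcripts of a gene were summed and no splicing change can be read from them. In the GENCODE 29 annotation the 10 genes have 107 transcripts, of which 39 are protein-coding, 22 are marked for nonsense-mediated decay and 28 retain an intron. Each of the 10 genes has at least 1 decay-marked transcript, with 6 of 12 in SRSF7 and 1 of 2 in SRSF6. Some members share bases with other genes in RefSeq, namely SRSF2 with MFSD11 (778 bases), SRSF4 with MECR (14205 bases) and SRSF9 with GATC (2078 bases). SRSF1 overlaps a long noncoding RNA gene by 1997 bases and SRSF5 another by 572 bases. The use of strand in counting is not given in the sources used here, so reads from these overlaps cannot be assigned with certainty.

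Libraries held 23502519 to 44815552 counts, and each member had between 1809 (SRSF9) and 15078 (SRSF1) counts in a library. The 21 libraries did not all group by dose. Clustering on mitochondrial mRNAs split them into 3 sets of 11, 7 and 3 libraries, with mitochondrial transcripts at 9.95% to 14.2%, 4.72% to 4.95% and 11.8% to 12.8% of counts. Set A holds everything up to 0.1 µM plus replicates 1 and 2 at 1 µM. Set B is made of the remaining 1 µM library, the whole 10 µM group, 1 library at 100 µM (replicate 2) and a pair at 1000 µM (replicates 1 and 2). Set C contains the other libraries of the top 2 doses. Control therefore shares no set with 10, 100 or 1000 µM, and for these doses set and dose cannot be told apart without a model. A fit with the set as a term ties set A to the other sets through 1 library alone, replicate 3 at 1 µM, so each set-term value of these doses against control rests on that library. Doses from 10 µM upward can be compared within set B. Hepatocyte markers were present in every library, for example ALB at 6021 to 14360 CPM (counts scaled to library size) and HNF4A at 190 to 294 CPM. Markers of other cells reached at most 9 counts in a library, except CD68 at 18.7 to 68.5 CPM, and KRT5 was at 0 throughout, while PECAM1 was not used here. The summed hepatocyte markers stood at 34610 to 40080 CPM in control and 27690 to 30390 CPM at 1000 µM. The summed level of the other-cell markers was 38.3 to 53.8 CPM in control and 19.0 to 43.7 CPM at 1000 µM, and the part of either sum in the results was not tested. In bulk libraries fewer cells of a kind and less RNA per cell cannot be told apart.

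Promoter windows from RefSeq (GRCh38.p14), of 250 bases before to 50 after a transcription start, were matched for 9 of the 10 members. The windows of SRSF1, SRSF5 and SRSF11 are printed because these genes rose most at 1000 µM by log2 fold change against 10 µM, and that of SRSF3 because it rose most at 100 µM against control, both in the fit on group means. Capitals mark TGACG or its reverse complement, the core of the cAMP response element to which CREB factors bind. SRSF1 lies on the minus strand at chr17:58007197-58007496, SRSF3 on the plus strand at chr6:36594112-36594411, SRSF5 on the plus strand at chr14:69766892-69767191, and the upstream start of SRSF11 on the plus strand at chr1:70205446-70205745.
SRSF1: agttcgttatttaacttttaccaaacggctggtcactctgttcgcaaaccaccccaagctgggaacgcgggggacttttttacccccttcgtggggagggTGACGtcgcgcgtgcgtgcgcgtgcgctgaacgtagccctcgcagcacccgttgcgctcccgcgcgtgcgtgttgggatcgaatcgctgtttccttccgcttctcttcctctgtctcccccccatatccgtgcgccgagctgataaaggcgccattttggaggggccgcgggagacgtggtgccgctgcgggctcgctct
SRSF3: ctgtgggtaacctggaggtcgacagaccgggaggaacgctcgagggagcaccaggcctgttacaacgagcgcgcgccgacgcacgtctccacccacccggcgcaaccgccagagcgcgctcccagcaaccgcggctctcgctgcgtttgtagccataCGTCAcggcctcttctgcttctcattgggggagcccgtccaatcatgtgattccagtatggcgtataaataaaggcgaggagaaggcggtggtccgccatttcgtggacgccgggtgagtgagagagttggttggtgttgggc
SRSF5: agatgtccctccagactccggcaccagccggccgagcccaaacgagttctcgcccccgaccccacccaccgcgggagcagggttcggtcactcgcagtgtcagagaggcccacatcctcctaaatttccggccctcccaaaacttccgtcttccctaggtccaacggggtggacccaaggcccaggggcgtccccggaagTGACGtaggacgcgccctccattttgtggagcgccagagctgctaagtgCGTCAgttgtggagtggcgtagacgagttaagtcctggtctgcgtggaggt
SRSF11: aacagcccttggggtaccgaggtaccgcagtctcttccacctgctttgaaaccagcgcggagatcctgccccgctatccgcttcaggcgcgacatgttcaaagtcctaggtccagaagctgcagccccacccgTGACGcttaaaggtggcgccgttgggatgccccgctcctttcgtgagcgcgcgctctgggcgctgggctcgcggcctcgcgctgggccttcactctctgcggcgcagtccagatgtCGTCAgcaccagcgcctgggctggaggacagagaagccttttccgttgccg

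The letters TGACG, searched on both strands, were found in 6 of the 11 windows of the 9 genes, in SRSF1, SRSF3, SRSF5, SRSF7 (1 of its windows) and SRSF11 (both windows). Of all 35116 windows of that length, 24.6% hold them. The full palindrome TGACGTCA, which contains TGACG, was in 0 of the 11 and in 1.85% of all windows. The xenobiotic response element TNGCGTG was in 0 of the 11, against 5.51% of all. CCAAT was found in SRSF3 alone among them, against 34.6% of all, and TATAAA in 1 window each of SRSF3, SRSF7 and SRSF11, against 11.5% of all. The windows held 53.7% to 74.7% G and C, against a median of 58.7% over all windows. A match describes the letters of the window and does not show that a factor binds there.

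In control cells, levels between genes can be compared only per length. Per kilobase of merged exons, SRSF1 (64.8 ± 5.83 CPM per kb, SD, n = 3), SRSF6 (61.1 ± 4.41) and SRSF2 (60.1 ± 1.72) stood highest and overlapped each other. SRSF7, SRSF11, SRSF3, SRSF5 and SRSF9 followed at 30.9, 30.7, 29.5, 28.01 and 26.03 CPM per kb, and the libraries of each overlapped those of its neighbour in this order. SRSF10 and SRSF4 were lowest at 11.8 and 10.2 CPM per kb and also overlapped. The order depends on the length used. With the length of the longest principal transcript, SRSF1 stayed first at 143 ± 12.9 CPM per kb and SRSF4 last at 38.2 ± 2.91, while SRSF9 and SRSF10 moved from ranks 8 and 9 to ranks 2 and 3.

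**Figure D1:**
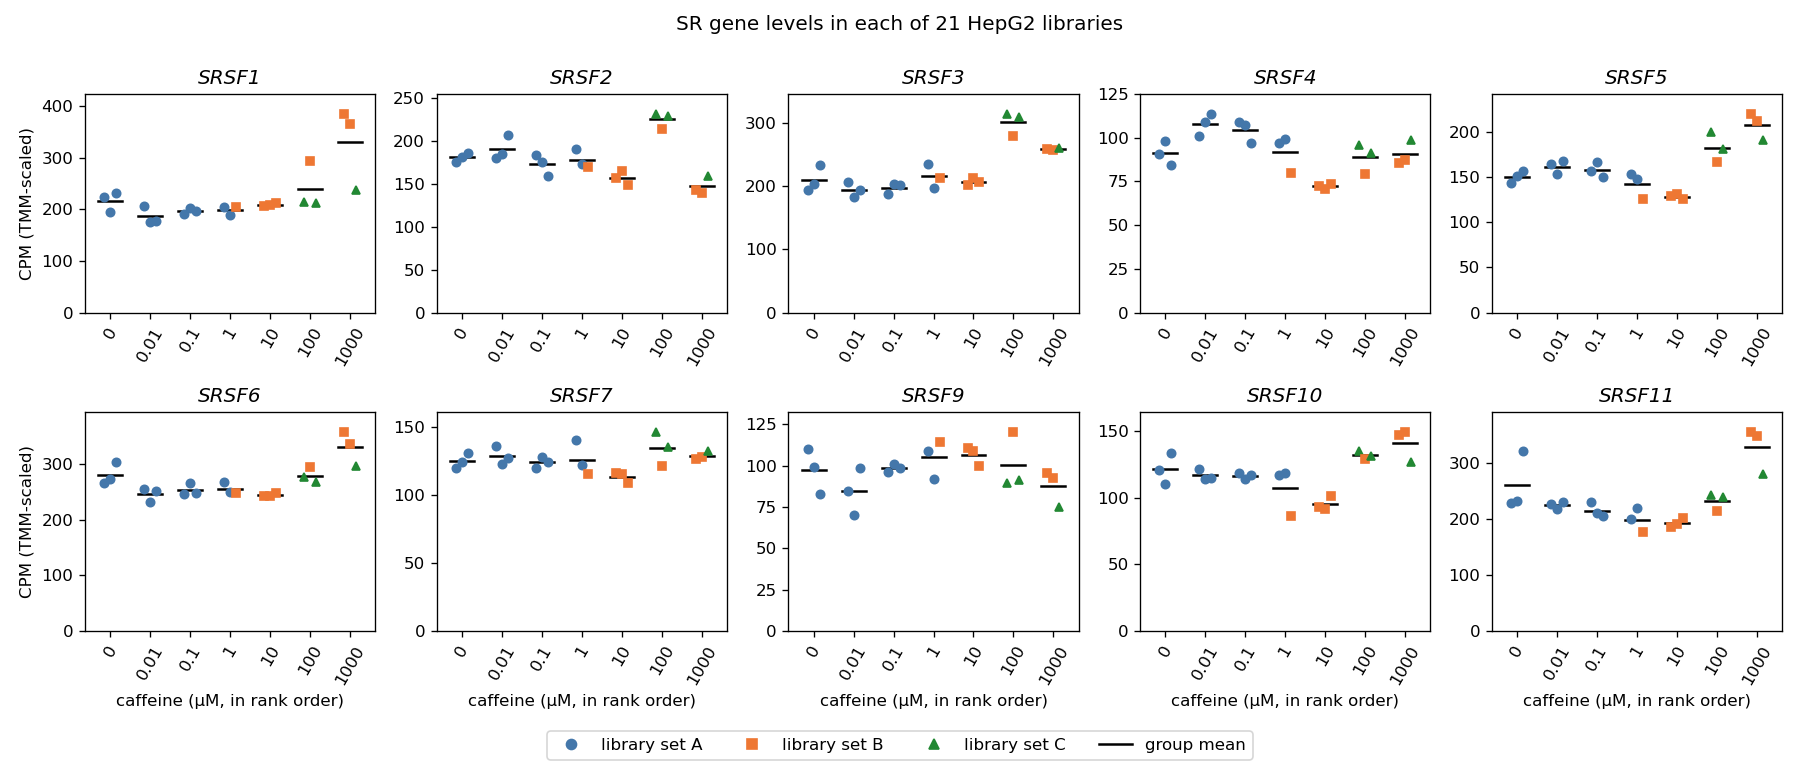
Level of each SR gene in every library (vertical axis, TMM-scaled CPM, from 0) against the caffeine dose in rank order (horizontal axis). Points are libraries, with marker and colour giving the library set, and bars are the means of 3 libraries. SRSF2 is high at 100 µM and low at 1000 µM in all 3 libraries, and SRSF1 at 1000 µM stands at 385 and 365 CPM in set B but 237 CPM in set C.

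No member passed the test at the 3 low doses, and members were called from 10 µM upward. By edgeR's quasi-likelihood test, with p-values adjusted over all 17951 tested features, 0 of 10 members passed at 0.01, 0.1 and 1 µM. At these doses 0.0279%, 0% and 0.106% of all features passed. Unadjusted p-values fell under 0.05 for SRSF4 and SRSF6 at 0.01 µM, for SRSF11 at 0.1 µM and for SRSF11 at 1 µM. DESeq2's Wald test also called 0 members at each of the 3 doses, where it called 3.12%, 0.498% and 3.22% of the features it gave an adjusted p. At 10 µM 3 members were lower and 0 higher, against 7.49% and 7.27% of all features (14.8% in either direction). At 100 µM 3 were higher and 0 lower, against 23.6% and 22.9% (46.6% in all). At 1000 µM 5 were higher and 1 lower, against 28.5% and 29.1% (57.6% in all). With the library set as a term, 0 members were called at 10 µM, where 0.0111% of features were higher and 0.0167% lower (0.0279% in all). In that fit 4 members were higher and 0 lower at 100 µM, against 9.14% and 8.21% (17.3% in all), namely SRSF1, SRSF3, SRSF5 and SRSF10. At 1000 µM it called 5 higher and 0 lower, against 18.2% and 19.8% (38.0% in all), namely SRSF1, SRSF5, SRSF6, SRSF10 and SRSF11. The joint test of the 6 doses called 8 members, all but SRSF7 and SRSF9, against 73.6% of all features, so the family's share is close to that of the whole table. Among features with a mean of at least 5 CPM it called 86.3%, again with 8 members. At 10, 100 and 1000 µM that fit called 22.5%, 55.5% and 66.8% of such features, with 3, 3 and 6 members. Median log2 fold changes of the 10 members were -0.20 at 10 µM, 0.11 at 100 µM and 0.22 at 1000 µM, and the medians over all features were 0.0014, -0.012 and -0.0069. Adding the library set to the fit gave member medians of -0.047, 0.26 and 0.32, and -0.0014, -0.025 and -0.030 over all features.

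**Figure D2:**
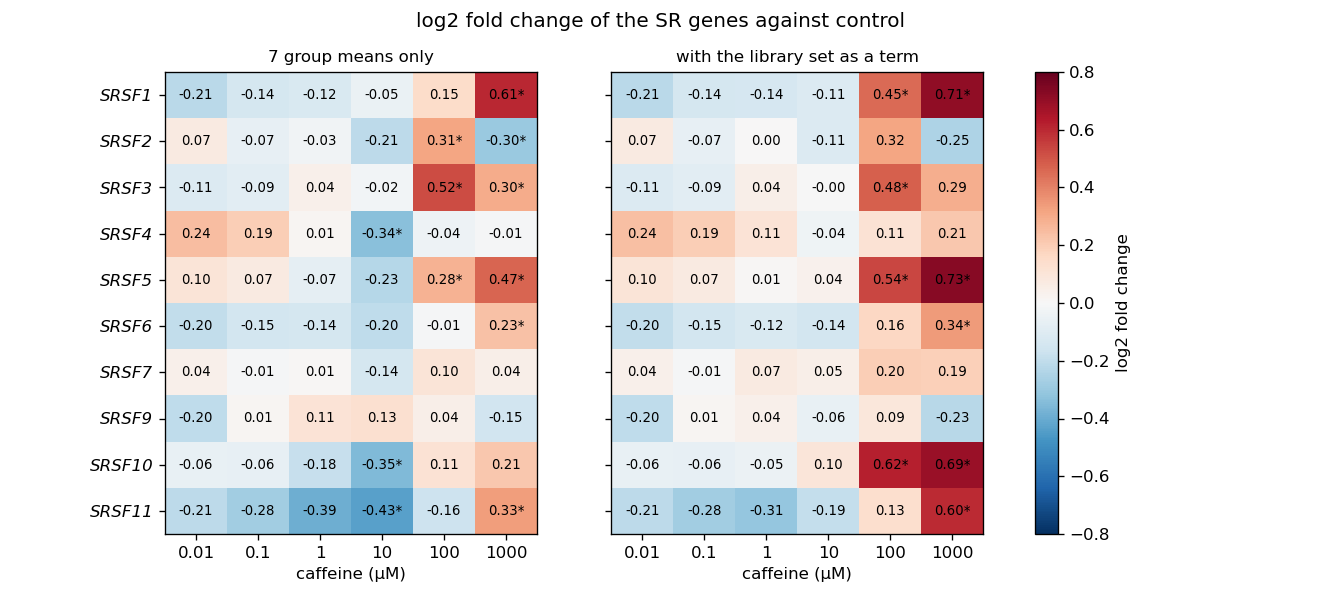
Log2 fold change against control (colour and printed value) for the 10 SR genes (rows) at 6 caffeine doses (columns). The left panel is the fit on group means and the right panel adds the library set as a term, and an asterisk marks an adjusted p below 0.05. SRSF4, SRSF10 and SRSF11 are called lower at 10 µM on the left (-0.34, -0.35 and -0.43) and not on the right.

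SRSF2, a marker protein of nuclear speckles that acts early in splice site choice, changed in opposite directions at the 2 highest doses. Its control libraries stood at 176, 181 and 186 CPM. At 10 µM they were 157, 165 and 149 CPM, at 100 µM 232, 214 and 229 CPM, and at 1000 µM 143, 140 and 160 CPM. All 100 µM libraries lay above all controls and all 1000 µM libraries below them. SRSF2 rose by a log2 fold change of 0.31 ± 0.080 (SE) at 100 µM (adjusted p = 0.00344) and fell by 0.30 at 1000 µM (adjusted p = 0.00372). With the library set as a term these were 0.32 (adjusted p = 0.12) and -0.25 (adjusted p = 0.139) and no longer passed. The direct difference of 1000 from 100 µM was larger, a log2 fold change of -0.61 ± 0.080 (adjusted p = 5.26e-06), or 0.655 of the 100 µM level. It was -0.56 with the set as a term, -0.63 within set B and -0.53 within set C. For every member, such within-set values of 1000 against 100 µM rest on an arm of 1 library, at 100 µM in set B and at 1000 µM in set C.

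SRSF3, the smallest SR protein and an adaptor for mRNA export, was the member that rose most at 100 µM in the fit on group means. With the library set as a term SRSF10 (0.62) and SRSF5 (0.54) stood above it. Control libraries held 193, 203 and 233 CPM, 100 µM libraries 314, 278 and 309 CPM, and 1000 µM libraries 258, 256 and 260 CPM. Neither dose overlapped control. The log2 fold change was 0.52 ± 0.083 at 100 µM (adjusted p = 4.43e-05) and 0.30 ± 0.082 at 1000 µM (adjusted p = 0.00428). With the set as a term the rise at 100 µM was 0.48 and passed (adjusted p = 0.0359), while that at 1000 µM was 0.29 and did not (adjusted p = 0.123). Between 1000 and 100 µM SRSF3 fell by 0.22 on the log2 scale (adjusted p = 0.0363). That call ended when any of 4 libraries was left out, namely replicates 1 and 3 of the 100 µM group and replicates 1 and 2 of the 1000 µM group (-0.19, -0.20, -0.22 and -0.21). It ended also without a filter (-0.24), with only those groups in the fit (-0.23), with the set as a term (-0.19, adjusted p = 0.071) and within set B (-0.15, adjusted p = 0.0804), and was -0.27 within set C (adjusted p = 0.00304).

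SRSF1, the founding SR protein and a factor with oncogenic activity, had the largest rise over control at 1000 µM in the fit on group means, while SRSF5 stood just above it with the set as a term (0.73 against 0.71). Control libraries were at 224, 194 and 231 CPM and 10 µM libraries at 206, 208 and 211 CPM. At 100 µM the values were 213, 293 and 212 CPM and at 1000 µM 385, 365 and 237 CPM. The 100 µM library at 293 CPM and the pair above 350 CPM at 1000 µM are those of set B, and the lower libraries of both doses are those of set C. All 1000 µM libraries still lay above all controls. The log2 fold change at 1000 µM was 0.61 ± 0.144 (adjusted p = 0.00137), and 0.71 with the set as a term. At 100 µM it was 0.15 (adjusted p = 0.419) on group means and 0.45 (adjusted p = 0.0417) with the set as a term. From 100 to 1000 µM SRSF1 rose by 0.46 (adjusted p = 0.0144) over all libraries, by 0.26 with the set as a term (adjusted p = 0.0145), by 0.32 within set B (adjusted p = 0.00141) and by 0.15 within set C (adjusted p = 0.0334). Over all libraries that call ended if replicate 1 or 3 of the 100 µM group was dropped (0.38 and 0.37), if replicate 1 or 2 of the 1000 µM group was dropped (0.33 and 0.38), or with only those groups in the fit (0.45, adjusted p = 0.155).

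SRSF5, an SR protein first described as insulin-induced, rose at both high doses. Its libraries stood at 143, 150 and 157 CPM in control, 199, 166 and 181 CPM at 100 µM and 220, 211 and 190 CPM at 1000 µM. Neither group overlapped control. The log2 fold change was 0.28 ± 0.086 at 100 µM (adjusted p = 0.0127) and 0.47 ± 0.086 at 1000 µM (adjusted p = 0.000133). With the set as a term both passed, at 0.54 and 0.73, each over 1.5 times the value on group means. The 100 µM call ended when replicate 1 of control (0.24) or of the 100 µM group (0.21) was left out, and with only those groups in the fit (0.28, adjusted p = 0.0559). Set B and set C gave different values for 1000 against 100 µM, with 0.35 ± 0.067 (adjusted p = 0.000872) in B and -0.0023 ± 0.064 (adjusted p = 0.981) in C, and the difference between the sets was not tested.

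SRSF6, which binds exonic enhancers, and SRSF11, a more distant family member that contacts the U2AF complex, rose at 1000 µM with overlap of the groups. SRSF6 stood at 266, 273 and 304 CPM in control and at 357, 336 and 295 CPM at 1000 µM, a log2 fold change of 0.23 ± 0.078 (adjusted p = 0.0164). SRSF11 stood at 228, 232 and 320 CPM in control and at 354, 347 and 279 CPM at 1000 µM, a log2 fold change of 0.33 ± 0.118 (adjusted p = 0.0217). Control replicate 3 is the high control library for both genes, and replicate 3 at 1000 µM, of set C, is the low treated one. Both calls ended when replicate 1 or 2 of control, or replicate 1 or 2 of the 1000 µM group, was left out. In that order the SRSF6 values were 0.19, 0.21, 0.17 and 0.22, and the SRSF11 values 0.24, 0.25, 0.27 and 0.29. Both also ended with only those groups in the fit (adjusted p = 0.111 and 0.114), and SRSF6 without a filter (adjusted p = 0.0619). With the set as a term the changes were 0.34 (adjusted p = 0.032) for SRSF6 and 0.60 (adjusted p = 0.0259) for SRSF11. From 100 to 1000 µM both also rose, SRSF11 by 0.50 ± 0.118 (adjusted p = 0.00212) and SRSF6 by 0.24 ± 0.078 (adjusted p = 0.018). Within set B SRSF11 rose by 0.68 and within set C by 0.21, both past the threshold. The SRSF6 call ended when replicate 1 or 3 of the 100 µM group (0.23 and 0.20) or replicate 1 or 2 of the 1000 µM group (0.18 and 0.23) was dropped, without a filter (0.22), with only those groups in the fit (0.23) and within set C (0.12, adjusted p = 0.0996).

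SRSF10, a splicing regulator that turns into a general repressor when it loses its phosphates, was low in every library of set B at 1 and 10 µM. At 1 µM its libraries were at 117 and 119 CPM in set A and at 86.2 CPM in set B, and the 10 µM libraries, all of set B, were at 93.3, 91.2 and 101.5 CPM. Control libraries held 121, 111 and 134 CPM, so the 10 µM group lay below all of them. At 100 µM the values were 135, 129 and 131 CPM and at 1000 µM 147, 149 and 127 CPM, overlapping control. The log2 fold change was -0.35 ± 0.102 at 10 µM (adjusted p = 0.0279) but 0.098 (adjusted p = 1) with the set as a term, which turned its direction. At 100 and 1000 µM it was 0.11 (adjusted p = 0.38) and 0.21 (adjusted p = 0.0818) on group means, and 0.62 (adjusted p = 0.00476) and 0.69 (adjusted p = 0.000498) with the set as a term, a correction that rests on the 1 µM library at 86.2 CPM. The 10 µM call ended when replicate 1 or 3 of control (-0.36 and -0.27) or replicate 1 or 2 of the 10 µM group (-0.34 and -0.32) was dropped, and without a filter (-0.32).

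SRSF4 and SRSF11 were the other members called at 10 µM. SRSF4, the SR protein with the longest arginine-serine stretch, stood at 90.7, 98.2 and 84.4 CPM in control and at 72.6, 70.9 and 73.3 CPM at 10 µM, with a log2 fold change of -0.34 ± 0.095 (adjusted p = 0.0249). SRSF11 was at 185, 192 and 202 CPM at 10 µM, with a log2 fold change of -0.43 ± 0.118 (adjusted p = 0.0212). At 1 µM the set B library was the lowest of the group for both, at 79.8 CPM against 97.1 and 99.2 for SRSF4 and at 177 CPM against 199.5 and 219 for SRSF11. With the set as a term the 10 µM values were -0.036 for SRSF4 and -0.19 for SRSF11, and neither passed. Of all 10 members, 7 had every 10 µM library below every control library, where 19.3% of all features did. Here too set membership and dose cannot be told apart. The SRSF4 call ended when replicate 1 (-0.34) or 2 (-0.28) of control or any 1 of the 10 µM libraries (-0.34, -0.32 and -0.34) was dropped, and without a filter (-0.31). The SRSF11 call ended when replicate 3 of control (-0.25) or replicate 1 or 2 of the 10 µM group (-0.40 and -0.43) was dropped. The count of 3 members was 1 with replicate 1 or 3 of control dropped, where 9.39% and 10.4% of all features were called. It was 0 with replicate 1 or 2 of the 10 µM group dropped, where 5.63% and 6.54% were called.

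SRSF7 and SRSF9 were called at no dose against control. SRSF7, the export adaptor with a zinc knuckle that is most like SRSF3, had group means of 113 to 134 CPM, lowest at 10 µM and highest at 100 µM. SRSF9, an SR protein with a short arginine-serine stretch, had group means of 84.7 to 106.7 CPM. In the joint test their adjusted p-values were 0.209 and 0.215. SRSF9 libraries spread widely within groups, from 70.2 to 98.9 CPM at 0.01 µM and from 89.3 to 120.4 CPM at 100 µM, where the high library is again the one of set B. SRSF4 was at 85.6, 87.3 and 98.4 CPM at 1000 µM, a log2 fold change of -0.011 ± 0.095 (adjusted p = 0.93), and 0.21 (adjusted p = 0.188) with the set as a term.

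The doses of 1000 and 10 µM can be compared within 1 library set, since set B holds replicates 1 and 2 of the former and all 3 libraries of the latter. Over all 21 libraries 7 members were higher at 1000 µM and 0 lower, against 26.1% and 26.0% of all features (52.1% in all). The 7 were SRSF1, SRSF3, SRSF4, SRSF5, SRSF6, SRSF10 and SRSF11, and each kept its call with any 1 library left out and with the set as a term, where 29.2% of features were higher and 29.9% lower (59.1% in all). Within set B alone all 10 members passed, 8 higher and 2 lower, against 31.5% and 33.6% of features tested there (65.1% in all). SRSF11 rose by 0.83 ± 0.052 on the log2 scale (adjusted p = 3.17e-08), SRSF1 by 0.82 ± 0.049 (adjusted p = 2.02e-08), SRSF5 by 0.72 ± 0.049 and SRSF10 by 0.60 ± 0.056. SRSF6 rose by 0.47, SRSF3 by 0.28, SRSF4 by 0.23 and SRSF7 by 0.13. SRSF2 fell by 0.18 (adjusted p = 0.0112) and SRSF9 fell by 0.21 (adjusted p = 0.00559). The median over the 10 members was 0.38 and that over all features there -0.018. These within-set values have no control library behind them, and the 1000 µM arm has 2 libraries.

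**Figure D3:**
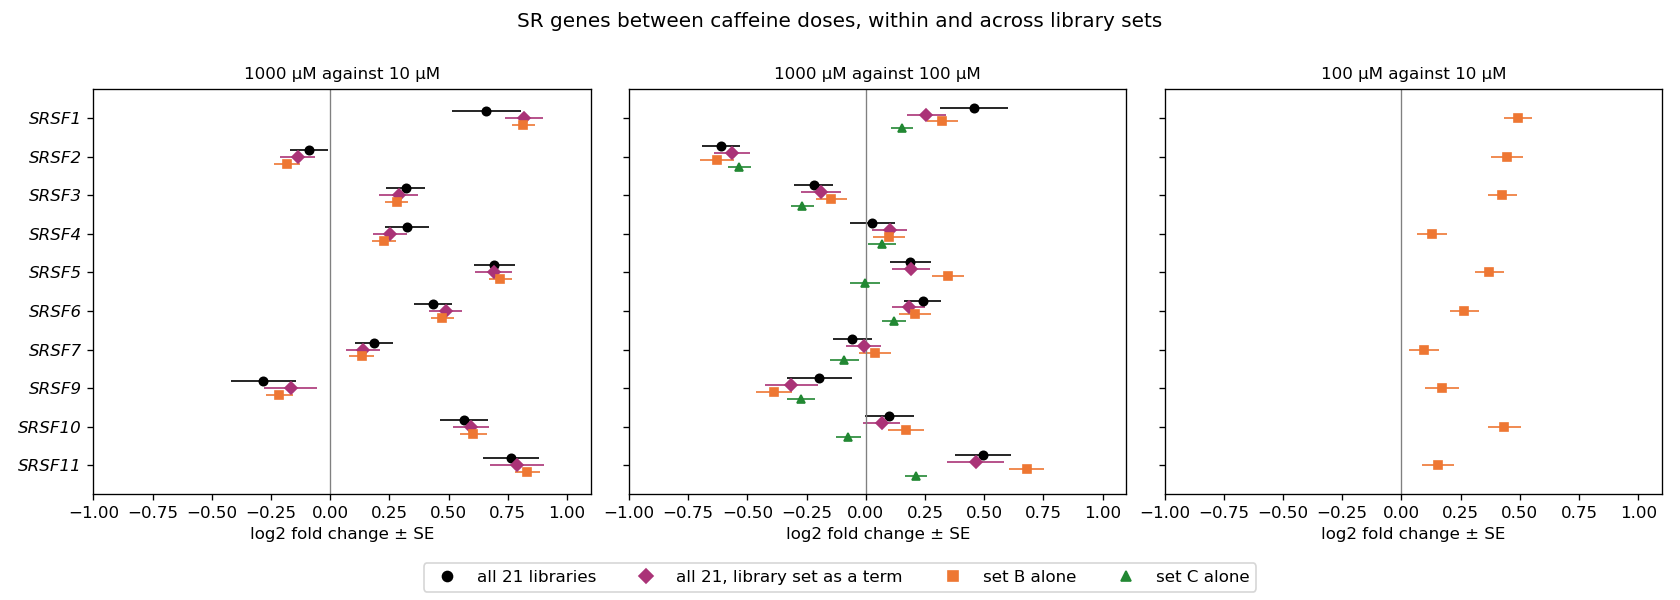
Log2 fold change with its standard error (horizontal axis) of each SR gene (rows) between caffeine doses, for all 21 libraries, with the library set as a term, and within set B or C alone. For 1000 against 10 µM the estimates within set B run from -0.21 for SRSF9 to 0.83 for SRSF11, and for 1000 against 100 µM the estimates in set B and set C are 0.35 and -0.0023 for SRSF5 and 0.68 and 0.21 for SRSF11.

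Set B also holds 1 library at 100 µM, which can be set beside the 3 at 10 µM if it is assumed to vary like the others. In that fit 6 members were higher and 0 lower, against 17.8% and 15.3% of features (33.2% in all). SRSF1 was higher by 0.49 ± 0.061, SRSF2 by 0.45 ± 0.067, SRSF10 by 0.43 ± 0.070, SRSF3 by 0.43 ± 0.060, SRSF5 by 0.37 ± 0.061 and SRSF6 by 0.27 ± 0.062. The values for SRSF11 (0.15), SRSF9 (0.17), SRSF4 (0.13) and SRSF7 (0.094) did not pass. Whether members differed from each other in this step was not tested.

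Direct comparison of 1000 with 100 µM over all libraries called 5 members, 3 higher (SRSF1, SRSF6, SRSF11) and 2 lower (SRSF2, SRSF3), against 21.8% and 22.3% of all features (44.0% in all). The count was 3 with replicate 1 of the 100 µM group dropped, where 36.7% of all features were called. It was 2 with replicate 3 of that group dropped (37.2% of features) or replicate 1 or 2 of the 1000 µM group dropped (34.3% each). With the set as a term 3 were higher and 2 lower, against 22.4% and 23.9% (46.3% in all), with SRSF9 in place of SRSF3. Within set B 4 were higher and 2 lower, against 23.2% and 27.8% of features there (51.0% in all), and within set C 2 were higher and 3 lower, against 21.2% and 20.8% (42.0% in all). SRSF9 was among the lower ones in both sets, at -0.39 ± 0.075 in B (adjusted p = 0.000927) and -0.27 ± 0.058 in C (adjusted p = 0.0061), but at -0.20 (adjusted p = 0.263) over all libraries. Each set has a single library in 1 of the arms.

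Summed over the 10 genes, the family took 1733 ± 112 CPM in control, 1525 ± 11.8 at 10 µM, 1914 ± 28.7 at 100 µM and 2047 ± 170 at 1000 µM (SD, n = 3). The 3 libraries at 100 µM ran from 1887 to 1944 CPM and did not overlap control, which ran from 1666 to 1863 CPM. The 1000 µM libraries ran from 1854 to 2172 CPM, and their lowest, of set C, lay within the control range. Within this sum the mean shares of single genes differed between groups, while control shares no library set with these doses. The shares also differed by set within a dose. SRSF2 at 1000 µM was at 6.59% and 6.62% in set B and 8.61% in set C. At 100 µM SRSF3 was at 14.6% in set B and 16.2% and 16.4% in set C. SRSF2 held 10.5% ± 0.43 of family counts in control, 11.8% ± 0.488 at 100 µM and 7.27% ± 1.16 at 1000 µM. SRSF1 went from 12.5% ± 0.873 in control to 15.9% ± 2.74 at 1000 µM, where the set B libraries were at 17.7% and 17.3% and the set C library, at 12.8%, lay within the control range of 11.7% to 13.4%. SRSF3 went from 12.1% ± 0.479 to 15.7% ± 0.986 at 100 µM and 12.7% ± 1.16 at 1000 µM. SRSF6 held 16.2%, 16.0%, 14.6% and 16.1% in control and at 10, 100 and 1000 µM, and its 100 µM libraries (14.1% to 15.4%) lay below all controls (15.9% to 16.4%). No test was made on these sums and shares.

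**Figure D4:**
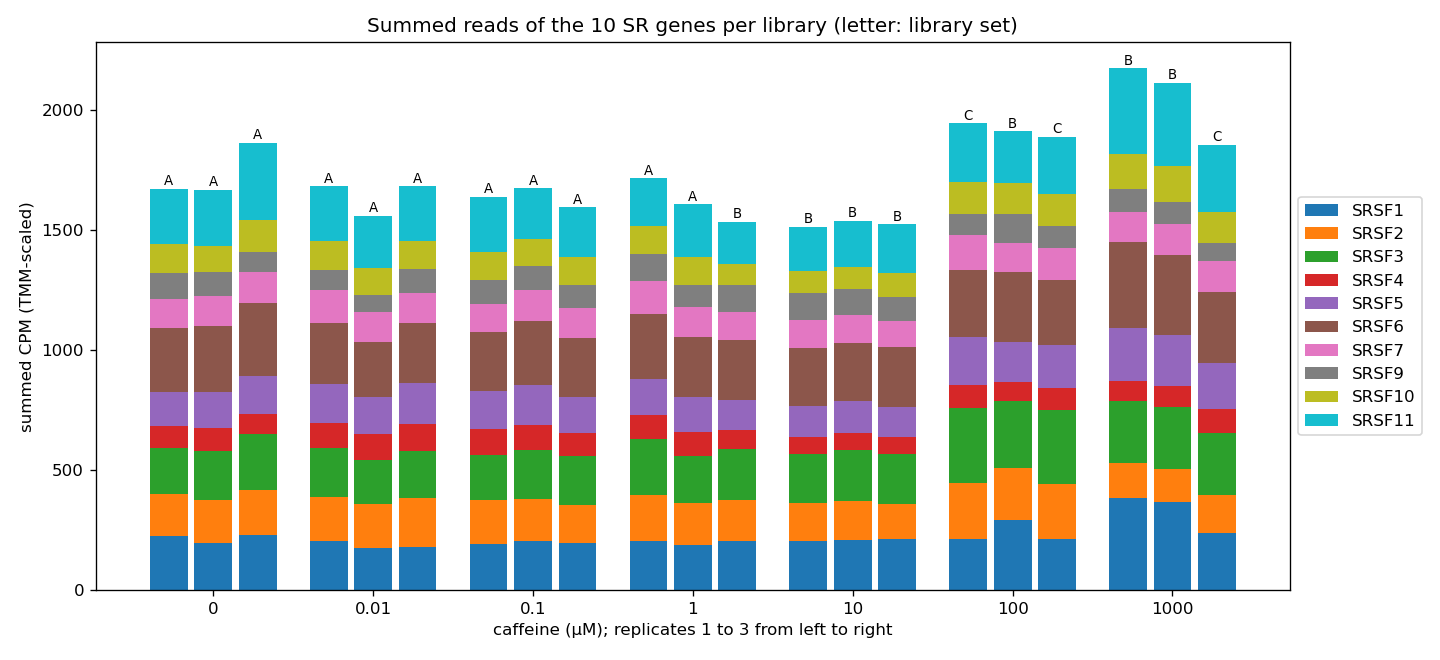
Summed TMM-scaled CPM of the 10 SR genes (vertical axis) in each library, stacked by gene, with libraries in dose order (horizontal axis) and the library set as a letter above each bar. The 10 µM bars are level at about 1525 CPM, and at 1000 µM the bar of set C is 1854 CPM against 2113.5 and 2172 CPM in set B.

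The kinases, partners and antagonists of SR proteins were followed in 5 lists of 63 genes, all of which were tested. At 1000 µM 32 of the 63 differed from control, against 57.6% of all features. Among 9 SR protein kinases 2 were higher and 1 lower, against 28.5% and 29.1% of all features, with a median log2 fold change of 0.18 where that of all features was -0.0069. CLK1, a kinase that phosphorylates SR proteins in the nucleus, had means of 30.7 ± 6.16 CPM in control and 56.0 ± 7.12 CPM at 1000 µM (SD, n = 3). It rose by 0.87 on the log2 scale (adjusted p = 7.63e-06), and by 0.87 with the set as a term. SRPK2, a mainly cytoplasmic SR kinase, rose by 0.22 and CLK3 fell by 0.32, but with the set as a term neither passed, SRPK2 at 0.31 (adjusted p = 0.128) and CLK3 at 0.16 (adjusted p = 0.381).

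Of 19 other proteins with an arginine-serine stretch, 7 rose and 3 fell at 1000 µM, with a median of 0.11, where 28.5% and 29.1% of all features did. In the fit with the set 9 rose and 0 fell, against 18.2% and 19.8%. SRSF8, a retrogene copy within the SR family, rose from 17.9 ± 2.47 to 34.8 ± 1.02 CPM (log2 fold change 0.96, and 0.47 with the set as a term). RBM39, a relative of U2AF that works as a splicing coactivator, rose from 514 ± 65.6 to 775 ± 99.1 CPM (0.59), and LUC7L rose by 0.56. At 10 µM this list had 1 higher and 9 lower, against 7.27% and 7.49% of features, and with the set as a term 0 were called.

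Among 22 hnRNP and PTB genes 11 rose and 2 fell at 1000 µM, with a median of 0.20, against 28.5% and 29.1% of all features. Adding the set gave 9 that rose and 1 that fell, against 18.2% and 19.8%. HNRNPDL rose from 177 ± 9.88 to 288 ± 6.79 CPM (log2 fold change 0.70), HNRNPD by 0.65 and HNRNPF by 0.43, and all passed with the set as a term. HNRNPL, a repressor that binds CA repeats, stood at 159 ± 12.9 CPM in control, 237 ± 17.8 at 100 µM and 121 ± 22 at 1000 µM. Between the top doses HNRNPL fell by 0.97 (adjusted p = 3.31e-07), and like SRSF2 its 100 µM mean was the highest and its 1000 µM mean the lowest of the 7 groups.

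Genes of splice site recognition went both ways, 2 higher and 2 lower of 10, against the same 28.5% and 29.1% of all features, with a median of -0.059. U2AF2, the subunit that reads the polypyrimidine tract, fell from 197 ± 15.4 to 117 ± 10.0 CPM (log2 fold change -0.75, adjusted p = 2.2e-07), and U2AF1, which reads the AG at the end of the intron, rose by 0.76. SF3A1, a subunit of the U2 particle, rose by 0.54. With the set as a term U2AF2 kept its call (-0.63) and U2AF1 did not (0.40, adjusted p = 0.332). Within set B, for 1000 against 10 µM, U2AF2 fell by 0.77 and U2AF1 rose by 0.44. In the transport list, NXF1, the mRNA export receptor that SRSF3 and SRSF7 bind, fell by 0.54 (by 0.35 with the set as a term, adjusted p = 0.0386), and ALYREF, its adaptor in the TREX complex, fell from 82.6 ± 11.2 to 31.2 ± 2.95 CPM (log2 fold change -1.41, and -0.78 with the set as a term). TNPO3, the importin of SR proteins, was at -0.096 (adjusted p = 0.284).

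**Figure D5:**
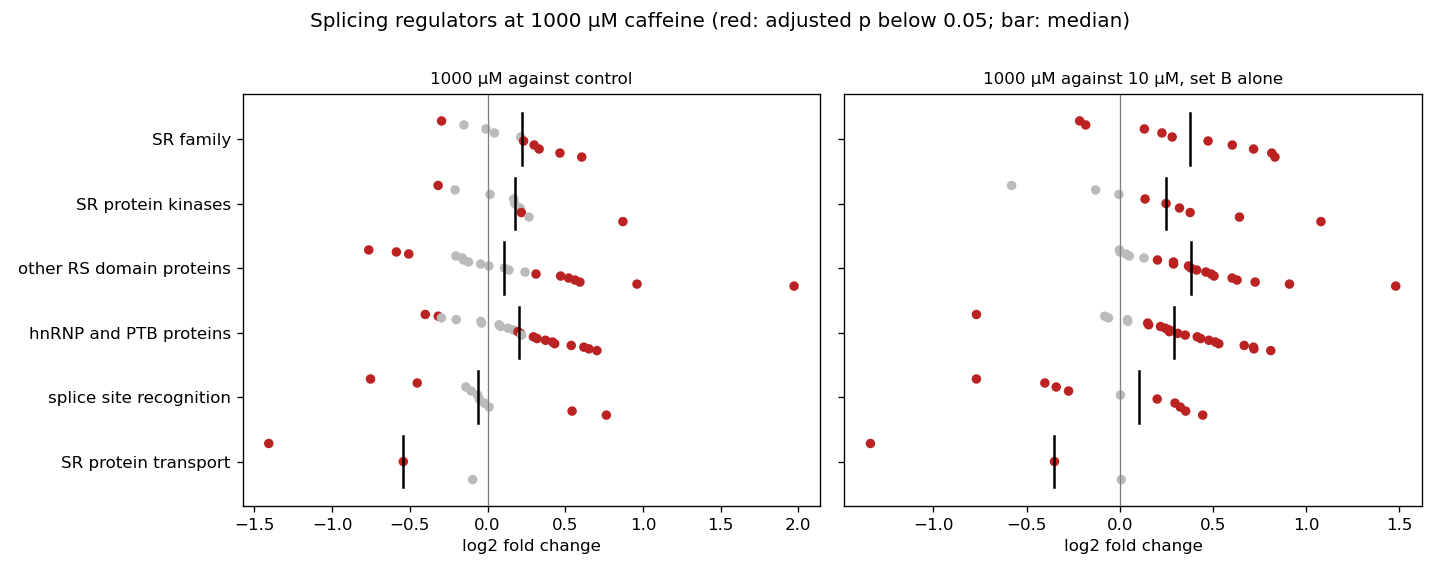
Log2 fold change (horizontal axis) of each gene of the SR family and of 5 lists of splicing regulators (rows), at 1000 µM against control in all libraries (left) and against 10 µM within set B (right). Red points have an adjusted p below 0.05, and vertical bars are list medians. The SR family median is 0.22 on the left and 0.38 on the right, and ALYREF is the point furthest to the left in both panels.

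Genes of like pattern were sought among 10616 features with a symbol and at least 5 CPM, by the root mean square difference of centred log2 CPM means over the 7 groups. For SRSF1 the nearest were CCNL1 (0.026), which encodes cyclin L1, a partner of kinases at nuclear speckles, then TBC1D23 (0.031) and ZNF555 (0.031). For SRSF5 they were NPAS2 (0.034), a transcription factor of the circadian clock, then NOP14 and SERPIND1 (0.051 each), and for SRSF11 RESF1 (0.038), NT5E (0.052) and YAF2 (0.055). Within the family SRSF5 and SRSF10 were the most alike pair, at 0.069. These values describe group means that share the library sets.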

How the data were processed

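The authors deposited raw read counts per feature, whole numbers without normalization. The submitters' processing notes name HISAT2, DESeq2 and the build GRCh38, without versions; the counter, annotation release, strand and read filters are not given in the sources used here. Of the table's columns, 21 further ones with per-sample values were not used, nor were its sum and median columns. The labels call the libraries triplicates, and no pair agreed within read-counting noise (chi-square per feature at least 3.48).

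Symbols were matched by Ensembl identifier for 24852 of 37637 features. Features were filtered with filterByExpr (17951 kept), given TMM factors, and fitted with edgeR 4.0.16 (R 4.3.3). Its quasi-likelihood F-test was used in 1 fit over 21 libraries, 2-sided, with Benjamini-Hochberg adjustment and a threshold of 0.05. A standard error is the log2 fold change over the square root of F. CPM used TMM-scaled library sizes, and log2 CPM a prior count of 2. Merged exon lengths came from GENCODE 29, which is not the authors' annotation, and gene spans from RefSeq. Library sets came from average-linkage clustering of centred log2 counts of mitochondrial mRNAs. The fit was tested on simulated counts that had no library sets and the same spread for every gene, so that test does not cover the effect of the sets.

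All members are named; of each list, up to 3 called genes with the smallest p and at least 5 CPM. Genes of like pattern are given for the 3 called members with the largest change at 1000 µM. TNPO3 and SRSF12 fall outside this rule and were chosen after their values were seen. The members, lists, motifs and tests were chosen with earlier results of these data known. Alternatives were DESeq2 1.42.0 (size factors, and its Wald or likelihood ratio test), all features unfiltered, a filter at 5 CPM, annotated features only, the replicate block, the library set as a term, only the groups compared, each library left out, and single sets; sets B and C alone for 1000 against 100 µM, and set B for 100 against 10 µM, were added after seeing the data. Counting error is small at these depths, and p-values measure the spread between libraries.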

Additional observations from a re-analysis of the deposited data

How the results depend on the processing

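Counts of called members at 0.01, 0.1 and 1 µM were 0 under every alternative run, while the share of all features called ran from 0% to 3.12%, 0.498% and 3.22% over those fits. The 100 µM, 1000 µM, 1000 against 10 µM and joint counts moved by no more than 1.5 times. The 10 µM count of 3 became 1 without a filter, where 4.98% of all features were called, 0 with the library set as a term (0.0279%) and 6 by DESeq2's Wald test (18.5%). The count of 5 for 1000 against 100 µM became 3 without a filter (19.7%) and 2 with only those groups in the fit (33.1%). In the fit of control and 1000 µM alone, which called 50% of features, the count of 32 listed regulators at 1000 µM became 20. SRSF10 at 10 µM changed direction with the set as a term (0.098). The causes were not tested.

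With 1 library left out at a time, the low doses gave 0 to 0 members, the 10 µM dose 0 to 4, the 100 µM dose 2 to 3 and the 1000 µM dose 4 to 7. Over the same fits at most 0.647% of all features were called at a low dose. At 10, 100 and 1000 µM it was 5.63% to 19.1%, 38.6% to 49.4% and 50.4% to 59.4%. Ranges were 2 to 6 for 1000 against 100 µM, 7 to 7 for 1000 against 10 µM, 8 to 8 jointly and 25 to 37 regulators at 1000 µM. The shares of all features were 34.3% to 50.7% for 1000 against 100 µM, 44.4% to 53.4% for 1000 against 10 µM and 67.4% to 76.9% jointly. With the replicate block the counts were 0, 0, 0, 3, 3 and 6 at the rising doses, 5 and 7 for 1000 against 100 and 10 µM, 8 jointly and 30 regulators, and that fit called 0%, 0%, 0%, 12.7%, 45.1% and 56.6% of all features at the rising doses, 42.7% and 51% between doses and 71.7% jointly. In it no called member lost its call. Same-numbered libraries did not deviate together (mean r across features -0.108 to 0.152; in 0 of 21 pairs of groups were all over 0.1), and replicate numbers were not treated as pairs. Of 713 values of called members under alternatives, 659 stayed on the same side of 0.05. Most of the 713 came from leaving 1 library out, where 470 stayed and 34 did not. Most of those fits dropped a library outside the groups compared, so the pooled figure says little on how firm a call is. With the library set as a term 17 stayed, 6 lost the call and 1 lost it with a change of direction. The scaling by DESeq2 moved fold changes by at most 0.015.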

Other observations

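The family has further members outside the 10 described. SRSF8 means were 17.9, 17.7 and 17.4 CPM in control and at 0.01 and 0.1 µM, then 20.3 ± 4.55 CPM in the 1 µM group and 24.5 ± 0.773 CPM in the 10 µM group. The next means were 28.2 ± 1.44 CPM (100 µM) and 34.8 ± 1.02 CPM (1000 µM; SD, n = 3 throughout). The highest 1 µM library stood at 25.4 CPM, and the 10 µM libraries ran from 23.9 to 25.4 CPM. Against control the log2 fold changes of SRSF8 at 10, 100 and 1000 µM were 0.46, 0.66 and 0.96 in the fit on group means. They were -0.066 (edgeR adjusted p = 1), 0.19 (adjusted p = 0.486) and 0.47 (adjusted p = 0.0274) when the library set was added, so no graded rise is read from the means. SRSF12, with a mean of 0.3 CPM over all libraries, had a log2 fold change of 1.97 at 1000 µM (edgeR adjusted p = 0.000768) and 0.66 (adjusted p = 0.568) with the library set as a term.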
